A study of Homo sapiens with 18 samples.

Results

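Cholesterol and fatty acid synthesis was followed at the RNA level through 36 genes, chosen by name for their place in these pathways, with earlier results of these data known, among 27086 genes with a transcript in the deposited quantifications. They comprised 18 genes of sterol synthesis (7 of the mevalonate steps and 11 of the squalene and sterol steps), 5 genes that control SREBP, 4 genes of sterol transport or LXR response, and 9 genes of fatty acid synthesis, elongation and desaturation. All 36 passed the filter on low counts in both experiments, and the lowest estimated count of any of them in any library was 47. The cells were 786-O, an established human line of clear cell renal cell carcinoma, cultured in DMEM with fetal bovine serum. In the USP13 experiment, cells carried short hairpin RNA sh50 or sh52 against USP13, a deubiquitinase, or a control hairpin, shCtrl. In the ZHX2 experiment, cells carried sh43 or sh45 against ZHX2, a zinc finger and homeobox transcription factor, or shCtrl from separate libraries. Each of the 6 groups had 3 libraries, 18 in all. The labels give no time after hairpin delivery for these groups and no treatment other than the hairpins; doxycycline-inducible USP13 hairpins are also described there, and which form these libraries carried is not said. Nothing in them says that the replicates were separate cultures; the p-values below therefore describe the spread among these libraries, some or all of which may be technical.

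Cells build cholesterol from acetyl-CoA through mevalonate, isoprenoids, squalene and a chain of sterols, and build fatty acids from the same acetyl-CoA through malonyl-CoA, followed by elongation and desaturation. Both routes are transcribed under the control of the SREBP factors, which leave the endoplasmic reticulum with their escort SCAP when membrane sterol is low and are held there by INSIG proteins when sterol is high. LXR nuclear receptors respond to oxysterols and raise genes of cholesterol export and, through SREBF1, of fatty acid synthesis. Clear cell renal carcinoma is known for its stores of cholesteryl esters and triglycerides.

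The treatment protocol in the labels lists hairpins 43 and 45 under USP13, whereas sample titles and characteristics assign them to ZHX2, so the targeted RNAs were examined first. Levels are given as CPM, read counts scaled to the library's size with TMM factors. USP13 stood at 16.8, 17.1 and 20.5 CPM in the sh50 libraries and 14.8, 18.1 and 17.9 CPM in the sh52 libraries, against 36.9, 34.7 and 31.8 CPM in shCtrl, with log2 changes of -0.92 and -1.03. ZHX2 stood at 38.6, 43.4 and 38.6 CPM with sh43 and 90.8, 82.1 and 79.6 CPM with sh45, against 340.3, 344 and 344 CPM in shCtrl, with log2 changes of -3.09 and -2.02. No library of a hairpin group reached the range of its controls for the gene assigned by title, in either experiment. ZHX2 RNA was also lower under sh50 (-0.20) and sh52 (-0.17), and USP13 RNA under sh43 (-0.23). Library totals lay between 11192561 and 16511290 estimated counts. The share of the library's counts from mitochondrial rRNA was 4.11% to 4.43% in sh50 and 3.54% to 3.8% in sh52, against 2.54% to 2.7% in their controls, and 1.51% to 1.57% in sh43 and 2.83% to 3.35% in sh45, against 1.18% to 1.32% in theirs. The counts of these 36 genes called under each hairpin, given below, were the same when these transcripts were left out of the library sizes. In the USP13 experiment, sh52 replicate 1 stood apart from the other libraries of its group on the second principal component. All 5 kidney tubule markers were measured, with PAX8, a renal lineage transcription factor, at 530.5 ± 14.1 CPM in sh50 and 534 ± 17.1 CPM in sh52, against 489 ± 23.9 CPM in USP13 shCtrl (SD, n = 3 each). The 5 kidney markers summed to 740 to 802 CPM with sh43 and 796 to 825 CPM with sh45, against 1075 to 1124 CPM in ZHX2 shCtrl, and 4 of the 5 were called lower and 1 higher under both of these hairpins, where 15.9% of all genes tested were lower and 14.1% higher under both; the part of this in the results below was not tested. Summed leukocyte markers (5 genes) never exceeded 1.87 CPM, endothelial markers (4 genes) 0.48 CPM and fibroblast markers (4 genes) 9.5 CPM in any library. The leukocyte marker CD3E had no count in any library, and the fibroblast marker DCN had counts in the sh52 group alone. In bulk RNA, fewer cells with a transcript and less of it per cell cannot be told apart.

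In control cells the most abundant of the 36 RNAs per unit length was SCD, the desaturase that introduces the double bond of oleate, at 435 ± 28.2 TPM in the shCtrl libraries of the USP13 experiment and 462 ± 31.4 TPM in those of the ZHX2 experiment (SD, n = 3 each). TPM, as deposited, corrects for transcript length, so levels of different genes can be compared. The desaturase FADS2 followed with 286 ± 11.4 and 316 ± 2.13 TPM. The sterol gene with the highest level in both sets of controls was FDPS, which makes farnesyl diphosphate, with 268 ± 9.43 and 180.3 ± 8.42 TPM. The lowest level was that of MYLIP, which encodes a ubiquitin ligase for lipoprotein receptors, at 12.8 ± 0.7 and 11.8 ± 1.55 TPM. In the ZHX2 controls the sterol gene SC5D was level with MYLIP, at 11.8 ± 0.554 TPM. The controls of the 2 experiments did not match in level: HMGCS1, the synthase of HMG-CoA, had 75.6 ± 8.89 TPM in USP13 shCtrl and 35.0 ± 0.725 TPM in ZHX2 shCtrl. Each hairpin was therefore compared with the controls of its own experiment only.

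**Figure D1:**
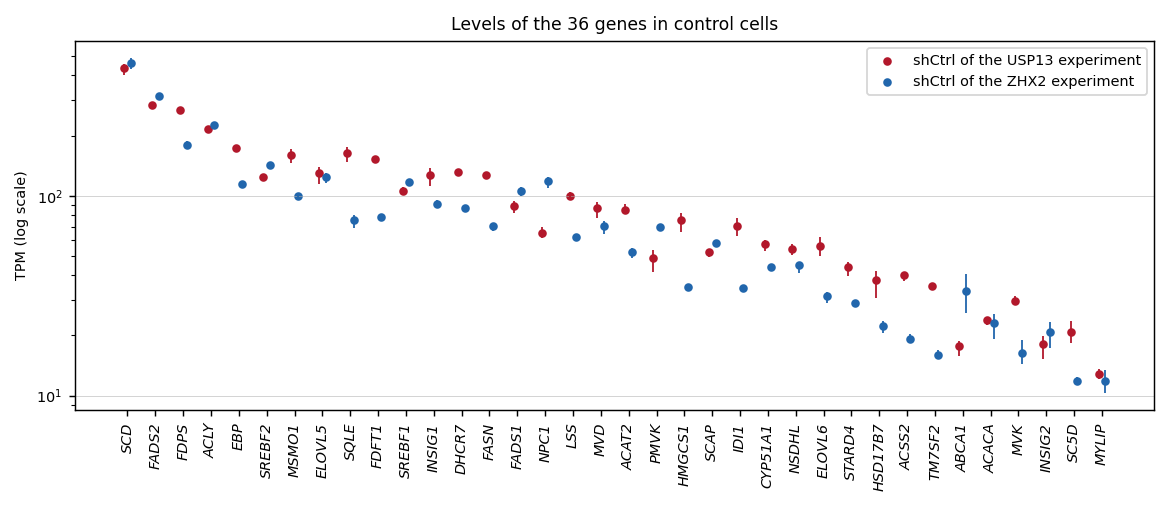
TPM (log axis) of the 36 genes in the shCtrl libraries of each experiment, ordered by mean level. Points are means of 3 libraries and lines run from the lowest to the highest library; SCD lies highest and MYLIP lowest.

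Promoter sequences of 300 bases, 250 before to 50 after the start of the gene, were found in the RefSeq table (build GRCh38.p14) for 32 of the 36 genes. A sterol response element, searched for only as the letters TCACNCCAC on either strand, was found in 1 of the 32 promoters (3.12%), that of SREBF2. It was found in 1.13% of 35116 promoters in the table and 1.1% of the 11279 promoters of tested genes. Elements with other letters or outside the 300 bases were not searched for, so a promoter without a match may still have one. A CCAAT box, the site bound by NF-Y, was found as CCAAT on either strand in 20 of 32 (62.5%), against 34.6% of all promoters and 36.8% of those of tested genes. It was present in 12 of 15 promoters of sterol steps and in 4 of 8 of fatty acid steps. An E-box (CACGTG) occurred in 6 of 32 (18.8%), against 7.26% of all and 9.97% of tested, and a GC box (GGGCGG on either strand) in 29 of 32 (90.6%), against 45% of all and 69.1% of tested. Matches to different motifs may overlap, and a match is a run of letters, not a measured binding site. The promoter of SREBF2 (chr22:41832855-41833154, plus strand), which encodes SREBP-2, the main activator of cholesterol synthesis, is shown because it alone among the 32 held the letters TCACNCCAC. The match, in capitals, begins 133 bases before the start of the gene.
SREBF2: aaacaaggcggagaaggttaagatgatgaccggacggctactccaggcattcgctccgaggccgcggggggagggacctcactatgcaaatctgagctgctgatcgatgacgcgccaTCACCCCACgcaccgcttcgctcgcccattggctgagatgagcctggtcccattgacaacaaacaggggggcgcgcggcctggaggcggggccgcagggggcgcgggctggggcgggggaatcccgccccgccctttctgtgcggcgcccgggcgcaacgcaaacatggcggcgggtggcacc

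Promoters of 4 further genes are shown because these genes carry much of the description below and each holds more than 1 CCAAT box; they were picked after their values had been seen. CCAAT, or its reverse complement ATTGG, is in capitals. HMGCS1 lies at chr5:43313363-43313662 (minus strand), DHCR7 at chr11:71448344-71448643 (minus strand), MSMO1 at chr4:165327419-165327718 (plus strand) and SCD at chr10:100346983-100347282 (plus strand).
HMGCS1: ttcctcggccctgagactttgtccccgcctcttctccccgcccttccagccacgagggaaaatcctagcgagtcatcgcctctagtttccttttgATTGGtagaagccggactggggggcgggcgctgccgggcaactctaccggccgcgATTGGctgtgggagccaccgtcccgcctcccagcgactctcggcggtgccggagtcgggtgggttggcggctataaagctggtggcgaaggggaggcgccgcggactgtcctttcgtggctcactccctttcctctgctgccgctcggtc
DHCR7: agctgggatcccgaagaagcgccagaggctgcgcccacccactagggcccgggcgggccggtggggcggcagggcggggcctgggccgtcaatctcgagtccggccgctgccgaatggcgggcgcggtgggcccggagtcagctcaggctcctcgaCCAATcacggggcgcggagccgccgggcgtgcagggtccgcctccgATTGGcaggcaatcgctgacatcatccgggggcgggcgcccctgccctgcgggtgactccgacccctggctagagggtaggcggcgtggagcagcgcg
MSMO1: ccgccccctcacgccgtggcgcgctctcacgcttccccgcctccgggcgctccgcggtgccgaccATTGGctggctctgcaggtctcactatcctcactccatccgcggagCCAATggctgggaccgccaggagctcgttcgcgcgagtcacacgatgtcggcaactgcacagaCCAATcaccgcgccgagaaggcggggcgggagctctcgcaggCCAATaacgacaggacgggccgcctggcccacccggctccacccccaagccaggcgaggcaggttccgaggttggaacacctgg
SCD: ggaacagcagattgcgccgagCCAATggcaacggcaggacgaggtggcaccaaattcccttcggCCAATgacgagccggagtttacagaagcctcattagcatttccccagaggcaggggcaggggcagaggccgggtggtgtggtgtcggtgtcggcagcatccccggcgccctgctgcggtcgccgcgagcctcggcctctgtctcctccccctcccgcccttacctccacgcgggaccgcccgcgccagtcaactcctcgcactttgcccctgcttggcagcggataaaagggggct

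Knockdown of USP13 was accompanied by lower RNA of most sterol synthesis genes and of most fatty acid genes. With sh50, 26 of the 36 genes fell and 1, SREBF1, rose, where 11.3% of the 13715 genes tested fell and 10.2% rose (edgeR quasi-likelihood test, adjusted p under 0.05). With sh52, 18 of 36 fell and none rose, where 6.56% of genes fell and 5.45% rose; at an adjusted p of 0.0677, SREBF1 was nearest to a rise under sh52, and it passed without the filter on low counts (0.0267) and in the fits without sh52 replicate 1 (0.00732) or shCtrl replicate 3 (0.019). At an unadjusted p under 0.05, 2 of the 36 were higher with sh52 (SREBF1 and MYLIP), and DESeq2 called none higher. Without sh52 replicate 1, the library that stood apart, 18 of 36 fell and 1 rose. Under both USP13 hairpins 17 genes fell and none rose, against 4.16% and 3.26% of all genes tested. The median log2 change of the 36 was -0.37 with sh50 and -0.24 with sh52, while the median of all genes tested was 0.003 and -0.001. The changes were moderate: the lowest of the 36 was -0.66 under sh50 and -0.54 under sh52.

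**Figure D2:**
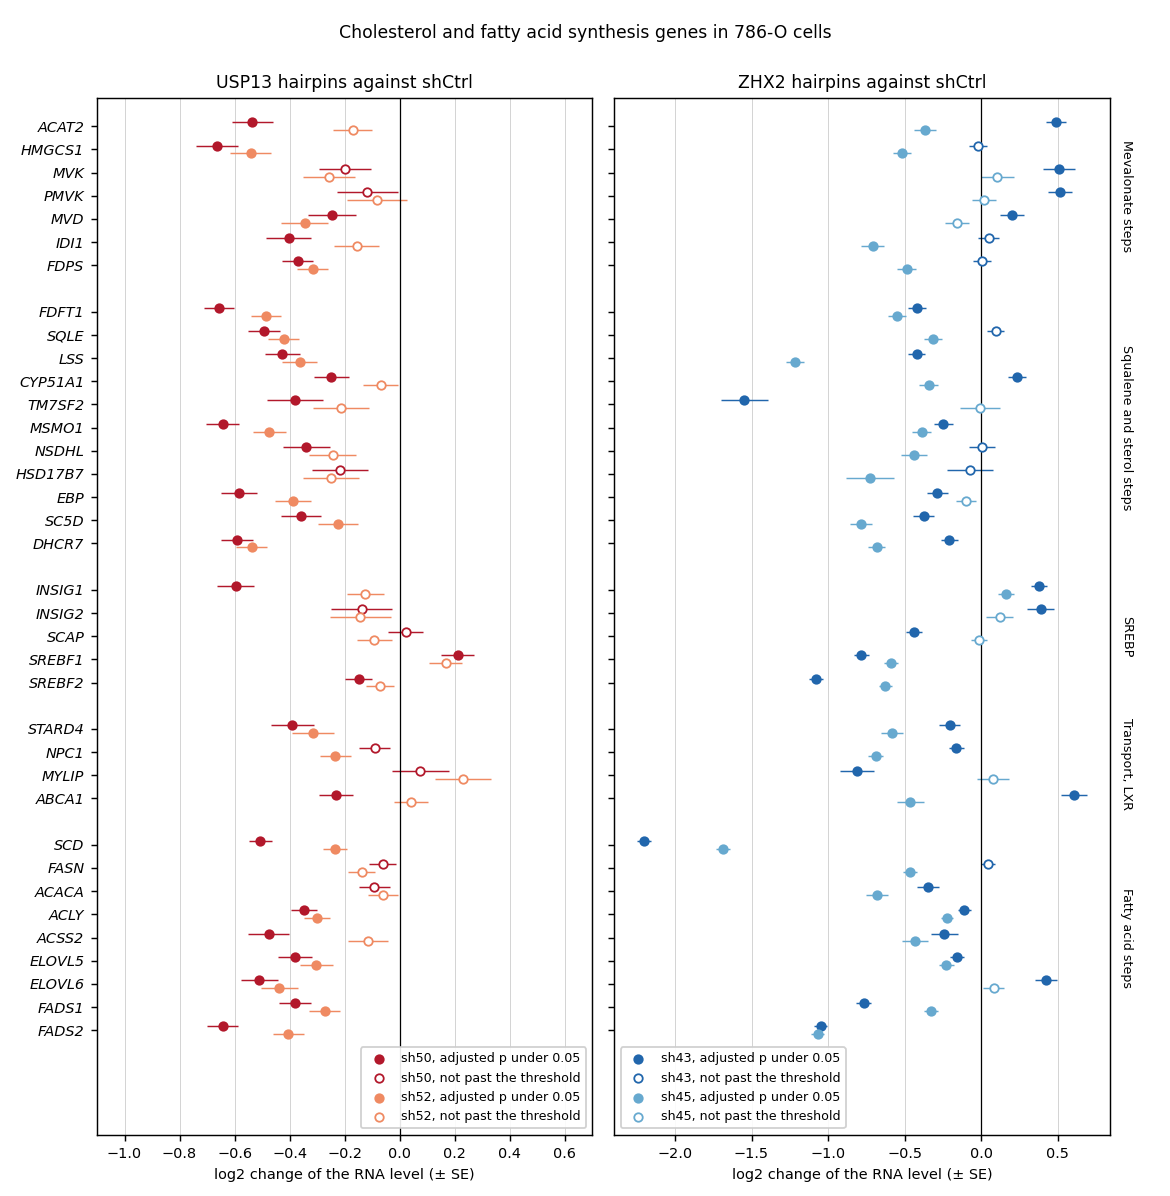
log2 change of each of the 36 genes under each hairpin against its own shCtrl (horizontal axes, of different scale in the 2 panels), by role from top to bottom. Bars are standard errors and filled points have an adjusted p under 0.05; 33 of 36 points lie below 0 under sh50 and 33 under sh52, whereas 22 do so under sh43 and 30 under sh45.

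Among the mevalonate steps, 5 of 7 genes fell with sh50 and 3 of 7 with sh52, with medians of -0.37 and -0.26. HMGCS1, whose product HMG-CoA enters the mevalonate pathway, stood at 142, 144 and 168 CPM in sh50 and 182, 158 and 155 CPM in sh52, against 245, 261 and 214 CPM in shCtrl. All 6 knockdown libraries were below the 3 controls, and HMGCS1 fell by 36.9% with sh50 (edgeR quasi-likelihood, log2 change -0.66, SE 0.07, adjusted p = 3.7e-07) and by 31.3% with sh52 (log2 change -0.54, SE 0.07, adjusted p = 1.6e-05). FDPS stood at 139, 140.4 and 138 CPM in sh50 and 135, 148 and 150.4 CPM in sh52, against 173, 186 and 179.8 CPM in shCtrl, and fell in both (-0.37 with an adjusted p of 3.1e-05, and -0.32 with an adjusted p of 0.00046), without overlap. MVD, the decarboxylase that yields isopentenyl diphosphate, stood at 69.2, 71.3 and 72.2 CPM in sh50 and 56.4, 71.1 and 71.4 CPM in sh52, against 73.4, 85.6 and 93.3 CPM in shCtrl. Its libraries were all below the controls, of which replicate 1 lay closest to them. MVD passed the test narrowly with sh50 (-0.25 with an adjusted p of 0.0407) and did not when any sh50 library or shCtrl replicate 2 or 3 was left out (adjusted p 0.0672 to 0.201) or with upper-quartile scaling (0.0517); with sh52 it fell (-0.34 with an adjusted p of 0.00883), except without shCtrl replicate 3 (0.0555). ACAT2, which joins acetyl-CoA units at the head of the route, fell with sh50 (-0.54 with an adjusted p of 6.5e-06) but had a log2 change of -0.17 with sh52, and the difference between the hairpins passed the test (0.36 with an adjusted p of 0.00189). IDI1, the isomerase of isopentenyl diphosphate, fell with sh50 (-0.40) and had a log2 change of -0.16 with sh52, which did not pass (adjusted p 0.224) except without sh52 replicate 1, where it was -0.26 with an adjusted p of 0.0224. The mevalonate kinase genes MVK (-0.20 and -0.26) and PMVK (-0.12 and -0.08) passed under neither hairpin; MVK passed under sh52 without sh52 replicate 2, at -0.35 (adjusted p 0.0234).

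Of the steps from squalene to cholesterol, 10 of 11 genes fell with sh50 and 7 of 11 with sh52, with medians of -0.43 and -0.36. FDFT1, squalene synthase, which commits farnesyl diphosphate to sterols, stood at 118, 119.5 and 117 CPM in sh50 and 129, 133 and 138 CPM in sh52, against 183, 192 and 184 CPM in shCtrl. The groups did not overlap and FDFT1 fell by 36.6% with sh50 (edgeR quasi-likelihood, log2 change -0.66, SE 0.06, adjusted p = 2.8e-09) and by 28.5% with sh52 (log2 change -0.48, SE 0.05, adjusted p = 8.1e-07). MSMO1, the sterol methyl oxidase, stood at 109.7, 116 and 119.8 CPM in sh50 and 126, 134 and 128 CPM in sh52, against 188, 184 and 168 CPM in shCtrl, all knockdown libraries below all controls (-0.64 with an adjusted p of 1.7e-08, and -0.47 with an adjusted p of 4.4e-06). DHCR7, the reductase of the last step to cholesterol, stood at 128, 131 and 123 CPM in sh50 and 126, 141 and 131 CPM in sh52, against 189, 196 and 192 CPM in shCtrl. Its control libraries were tightly grouped and every knockdown library lay below them (-0.59 with an adjusted p of 3.2e-08, and -0.54 with an adjusted p of 3.5e-07). SQLE, squalene epoxidase, a rate-limiting oxygenation, fell under both hairpins (-0.49 and -0.42), as did LSS, lanosterol synthase (-0.43 and -0.36), and EBP, the sterol isomerase (-0.58 and -0.39). SC5D, a sterol desaturase, fell with sh50 (-0.36); with sh52 its -0.22 passed at 0.0457 but not with upper-quartile scaling, with only the 2 groups compared or with effective lengths as offsets (0.0564 to 0.0617), or when sh50 replicate 1 or 2, any sh52 library, or shCtrl replicate 1 or 2 was left out (0.0589 to 0.282). CYP51A1, lanosterol demethylase (-0.25 and -0.07), NSDHL, which acts in the removal of sterol methyl groups (-0.34 and -0.24), and TM7SF2, a sterol reductase (-0.38 and -0.21), passed with sh50 only, and none of these 3 differed between the hairpins by the test. The sh50 call of TM7SF2 was lost without sh50 replicate 1 (adjusted p 0.0662). HSD17B7, the keto-reductase, passed with neither (-0.22 and -0.25) except without shCtrl replicate 3 (0.0472 and 0.0455), and it has a near-identical pseudogene, so its count is uncertain.

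**Figure D3:**
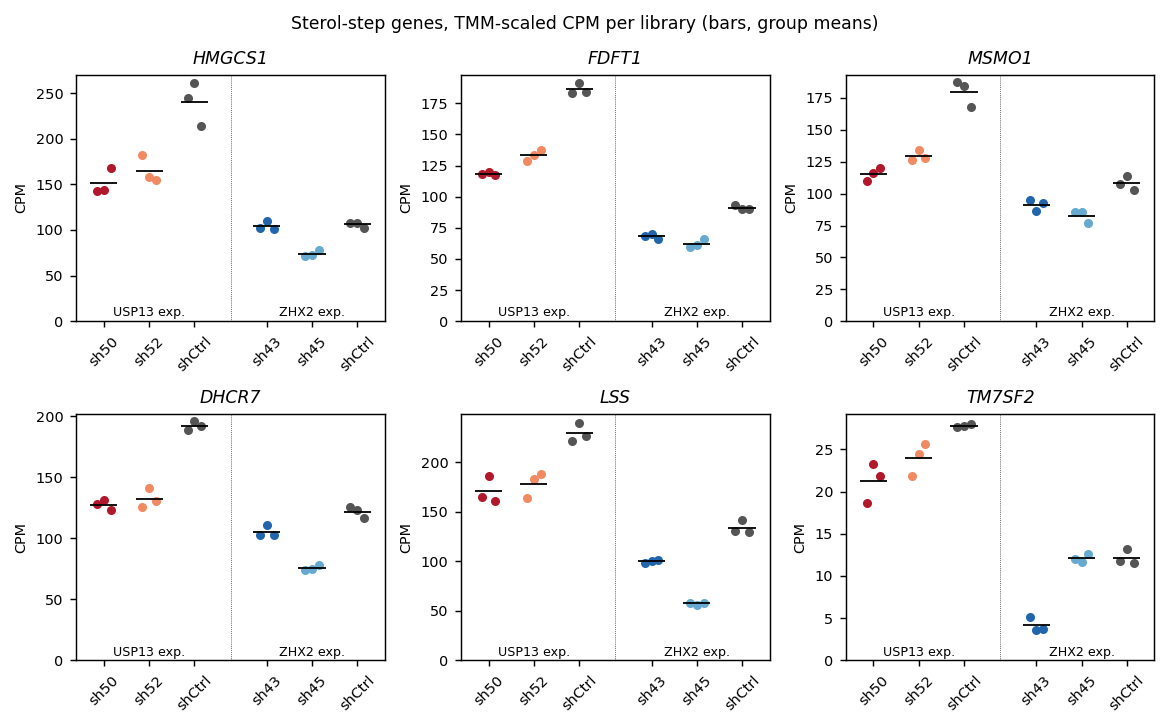
CPM (TMM-scaled) of 6 sterol synthesis genes in every library, hairpins left of their shCtrl, with bars at group means. HMGCS1, FDFT1, MSMO1, DHCR7 and LSS lie below control in all 6 USP13 knockdown libraries, and TM7SF2 is lowest in the sh43 libraries.

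Of the genes that regulate SREBP, INSIG1, itself an SREBP target whose protein retains SCAP, stood at 128, 140.2 and 147 CPM in sh50 and 207, 179 and 192 CPM in sh52, against 212, 226 and 191 CPM in shCtrl. It fell with sh50 (edgeR quasi-likelihood, log2 change -0.60, SE 0.07, adjusted p = 4.1e-07), whereas the sh52 libraries overlapped the controls (-0.13 with an adjusted p of 0.243), and the hairpins differed by 0.47 (sh52 over sh50, adjusted p = 3.8e-05). SREBF1, which encodes the SREBP-1 isoforms of lipogenesis, stood at 329.6, 349 and 316 CPM in sh50 and 295, 338 and 333 CPM in sh52, against 277, 275 and 308 CPM in shCtrl. It rose with sh50 (0.21 with an adjusted p of 0.0125), with all 3 libraries above the controls, but not without sh50 replicate 2 or shCtrl replicate 1 or 2 (0.0724 to 0.0884); under sh52, replicate 1 lay within the control range and without it the change was 0.23 with an adjusted p of 0.00732. SREBF2 stood at 349, 363 and 370.2 CPM in sh50 and 359.5, 391 and 392 CPM in sh52, against 400.5, 402 and 398 CPM in shCtrl. All 6 knockdown libraries were lower than the controls, though by little: -0.15 with an adjusted p of 0.0348 with sh50, and -0.07 with an adjusted p of 0.402 with sh52. The sh50 call was lost without sh50 replicate 1 or 2 or shCtrl replicate 1 or 2 (0.0856 to 0.163), and narrowly with upper-quartile scaling (0.0519). INSIG2, the second retention protein, and SCAP passed under neither hairpin and lay between -0.14 and 0.02.

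STARD4, which carries cholesterol between membranes, stood at 77.2, 70.5 and 74.0 CPM in sh50 and 89.0, 73.9 and 70.1 CPM in sh52, against 98.7, 101 and 90.2 CPM in shCtrl, with no overlap. It fell in both (edgeR quasi-likelihood, -0.39 with an adjusted p of 0.00052, and -0.32 with an adjusted p of 0.00734); the sh52 call was lost without sh52 replicate 3 (0.0721) or shCtrl replicate 2 (0.0576). NPC1, which releases cholesterol from lysosomes, passed with sh52 only (-0.23), not without shCtrl replicate 1 (0.0546). ABCA1, the exporter of cholesterol to apolipoprotein and an LXR target, stood at 94.6, 93.0 and 99.4 CPM in sh50 and 119, 115 and 113 CPM in sh52, against 117, 117 and 103 CPM in shCtrl. It fell with sh50 (-0.23 with an adjusted p of 0.00795), not without sh50 replicate 2 or shCtrl replicate 2 (0.0557 and 0.063), and was 0.04 with sh52. MYLIP, an LXR target, passed with neither hairpin (0.07 and 0.23).

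Of the 9 fatty acid genes, 7 fell with sh50 and 6 with sh52, at medians of -0.38 and -0.27. SCD stood at 987, 963 and 1003 CPM in sh50 and 1180.0, 1188 and 1195 CPM in sh52, against 1437, 1422 and 1335 CPM in shCtrl. The 3 groups were separate from each other: SCD fell by 29.6% with sh50 (edgeR quasi-likelihood, log2 change -0.51, SE 0.04, adjusted p = 3.2e-09) and also fell with sh52 (log2 change -0.23, SE 0.04, adjusted p = 0.00044), and the hairpins differed (0.27 with an adjusted p of 0.00011). FADS2, which starts the desaturation of polyunsaturated fatty acids, stood at 325, 337 and 316 CPM in sh50 and 345, 403 and 406 CPM in sh52, against 513, 514 and 501 CPM in shCtrl. Every knockdown library lay far below the controls, with sh52 replicate 1 lowest of its group (-0.64 with an adjusted p of 5.9e-09, and -0.41 with an adjusted p of 1.7e-05). ELOVL6, which elongates palmitate, stood at 72.7, 71.5 and 74.6 CPM in sh50 and 78.2, 74.1 and 77.8 CPM in sh52, against 113, 103 and 96.2 CPM in shCtrl, with no overlap (-0.51 with an adjusted p of 2.7e-06, and -0.44 with an adjusted p of 5.3e-05). FADS1 and ELOVL5, which desaturate and elongate polyunsaturated chains, and ACLY, which makes cytosolic acetyl-CoA from citrate, fell under both hairpins with log2 changes between -0.38 and -0.27. ACSS2, which makes acetyl-CoA from acetate, fell with sh50 (-0.48) and was -0.12 with sh52, a difference that passed the test (adjusted p 0.00202). The central enzymes of the pathway did not pass: FASN, fatty acid synthase, stood at 595, 638 and 629 CPM in sh50 and 551, 613 and 601 CPM in sh52, against 637, 659 and 646 CPM in shCtrl. The sh52 libraries lay below the controls and the sh50 libraries overlapped them (-0.06 with an adjusted p of 0.419, and -0.14 with an adjusted p of 0.0669); without sh52 replicate 2, FASN passed under sh52 (0.0439). ACACA, acetyl-CoA carboxylase, had log2 changes of -0.09 and -0.06.

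The 2 USP13 hairpins were compared directly. Of the 36 genes, 7 were higher in sh52 than in sh50 (ACAT2, FDFT1, INSIG1, ABCA1, SCD, ACSS2 and FADS2) and none was lower, where 5.48% of all genes tested were higher and 4.74% lower. At an unadjusted p under 0.05, 11 were higher and 1, NPC1, was lower. The differences of these 7 lay between 0.17 and 0.47 in log2. USP13 RNA itself did not differ between the hairpins by the test (-0.11, adjusted p 0.611, edgeR quasi-likelihood).

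In the ZHX2 experiment far more of all genes changed, which sets the frame for the 36. With sh43, 20 of 36 fell and 9 rose, where 35.2% of the 13604 genes tested fell and 33.5% rose. With sh45, 26 fell and 1 rose, where 27.3% fell and 25.3% rose. Under both ZHX2 hairpins 16 fell and 1, INSIG1, rose, where 15.9% of all genes fell and 14.1% rose under both. The median log2 change of the 36 was -0.16 with sh43 and -0.43 with sh45, against -0.022 and -0.007 for all genes tested.

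SCD showed the lowest log2 change of the 36 under either ZHX2 hairpin. It stood at 295, 321 and 304 CPM in sh43 and 450.1, 447 and 418 CPM in sh45, against 1413, 1349 and 1475 CPM in shCtrl. The groups were far apart, and SCD fell by 78.3% with sh43 (edgeR quasi-likelihood, log2 change -2.20, SE 0.05, adjusted p = 7.8e-24) and by 69.0% with sh45 (log2 change -1.69, SE 0.04, adjusted p = 3.6e-21). FADS2 stood at 251, 264 and 270.0 CPM in sh43 and 258, 259 and 258 CPM in sh45, against 537, 553 and 533 CPM in shCtrl. Both hairpins gave about the same level, close to 1 log2 unit below control (-1.05 with an adjusted p of 1.4e-17, and -1.07 with an adjusted p of 2.3e-17). FADS1, its partner desaturase, stood at 152, 153 and 149.7 CPM in sh43 and 212, 206 and 198 CPM in sh45, against 267, 250.1 and 257 CPM in shCtrl; it fell more with sh43 (-0.77) than with sh45 (-0.33), and the hairpins differed (adjusted p 8.3e-09). ACACA (-0.35 and -0.68), ELOVL5 (-0.16 and -0.23), ACSS2 (-0.24 and -0.43) and ACLY (-0.11 and -0.23) also fell under both. The sh43 call of ACLY was lost with DESeq2's size factors (0.0507), without the filter on low counts (0.0904), and without sh43 replicate 2 or 3 or shCtrl replicate 1 (0.0617 to 0.0652), and that of ACSS2 without sh43 replicate 3 (0.0842) or shCtrl replicate 2 (0.142). FASN stood at 335, 362 and 354 CPM in sh43 and 242, 247 and 249 CPM in sh45, against 350.2, 331 and 338 CPM in shCtrl. It fell with sh45 only (-0.47 with an adjusted p of 1.5e-09), the sh43 libraries overlapping the controls (0.04). ELOVL6 rose with sh43 (0.42) and was 0.08 with sh45.

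Both SREBP genes fell under both ZHX2 hairpins. SREBF2 stood at 199, 213 and 207 CPM in sh43 and 290.3, 275 and 282 CPM in sh45, against 436, 439 and 434 CPM in shCtrl. The control libraries spanned a narrow range and both hairpin groups lay well below it (edgeR quasi-likelihood, log2 change -1.08, SE 0.04, adjusted p = 1.5e-17, with sh43; log2 change -0.63, SE 0.04, adjusted p = 2.5e-12, with sh45). SREBF1 stood at 168, 170.2 and 184 CPM in sh43 and 194, 195 and 208 CPM in sh45, against 302, 303 and 295 CPM in shCtrl, again with separate groups (-0.78 with an adjusted p of 1.1e-13, and -0.59 with an adjusted p of 8.1e-11). INSIG1 stood at 191, 179 and 195 CPM in sh43 and 160.0, 169 and 158 CPM in sh45, against 145, 142 and 148 CPM in shCtrl. All 6 knockdown libraries were above the controls, so INSIG1 rose (0.38 with an adjusted p of 2.8e-07, and 0.16 with an adjusted p of 0.00986), the sh45 call being lost without sh45 replicate 2 (0.0608). INSIG2 rose with sh43 (0.39) and was 0.12 with sh45, and SCAP fell with sh43 (-0.44) and was -0.01 with sh45.

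**Figure D4:**
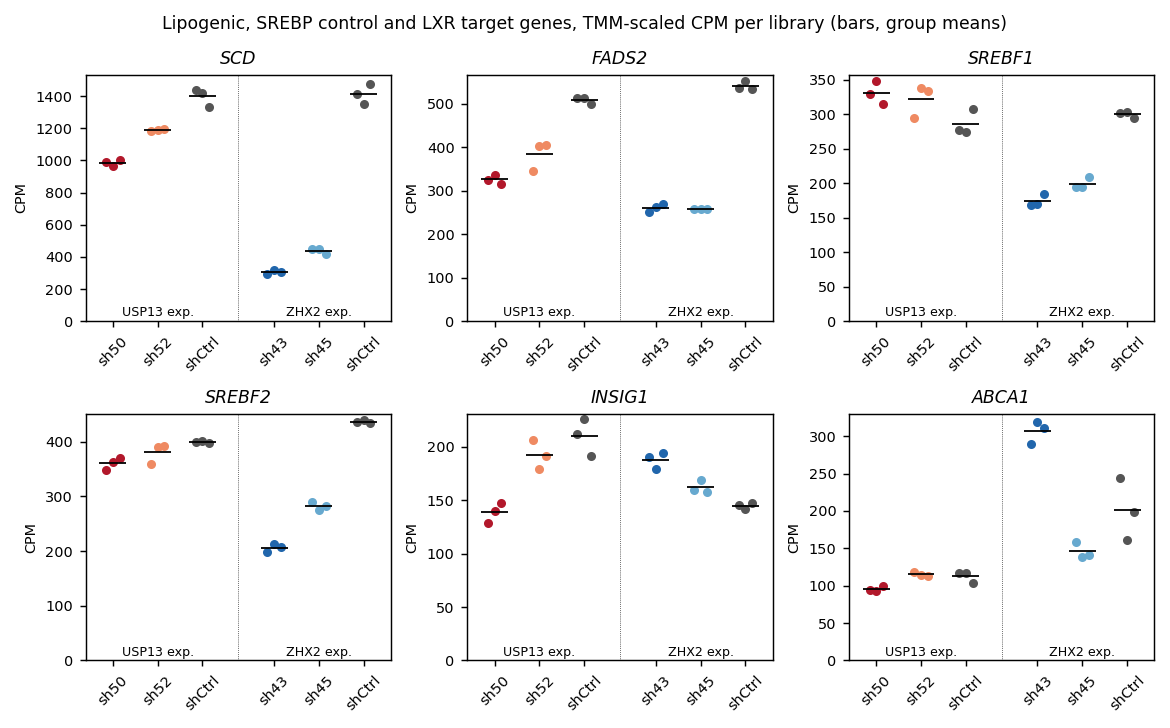
CPM (TMM-scaled) of 6 genes of desaturation, SREBP control and cholesterol export in every library, hairpins left of their shCtrl, with bars at group means. SCD, FADS2, SREBF1 and SREBF2 lie below control in all 6 ZHX2 knockdown libraries, INSIG1 lies above, and ABCA1 is above with sh43 and below with sh45.

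Sterol genes are described by their position in the pathway. Of the 7 mevalonate genes none fell and 4 rose with sh43 (median 0.20), whereas 4 fell and none rose with sh45 (median -0.37); the counts were the same at an unadjusted p under 0.05. Of the 11 squalene and sterol genes, 7 fell and 1 rose with sh43 (median -0.25), and 9 fell and none rose with sh45 (median -0.44). These counts stand beside 35.2% of all genes tested that fell and 33.5% that rose with sh43. With sh45 the shares of all genes were 27.3% and 25.3%. LSS stood at 98.3, 101 and 101 CPM in sh43 and 58.4, 56.4 and 58.4 CPM in sh45, against 131, 142 and 129.7 CPM in shCtrl. The 3 groups did not overlap, and sh45 was lowest (edgeR quasi-likelihood, log2 change -0.42, SE 0.06, adjusted p = 2.4e-07, with sh43; log2 change -1.21, SE 0.06, adjusted p = 1.3e-15, with sh45). SC5D stood at 35.8, 36.7 and 35.5 CPM in sh43 and 27.1, 27.0 and 27.4 CPM in sh45, against 44.4, 47.7 and 48.0 CPM in shCtrl, in the same order (-0.38 with an adjusted p of 3.3e-05, and -0.78 with an adjusted p of 7.3e-10). FDFT1 stood at 68.7, 69.8 and 66.0 CPM in sh43 and 59.5, 61.2 and 66.1 CPM in sh45, against 93.3, 90.3 and 90.2 CPM in shCtrl. The 2 hairpin groups touched at 1 library each and were all below control (-0.42 with an adjusted p of 7.5e-07, and -0.55 with an adjusted p of 2.1e-08). DHCR7 (-0.21 and -0.68) and MSMO1 (-0.25 and -0.39) likewise fell under both. HMGCS1 (-0.02 and -0.52), FDPS (0.01 and -0.49), IDI1 (0.05 and -0.71), SQLE (0.09 and -0.31), NSDHL (0.01 and -0.44) and HSD17B7 (-0.07 and -0.73) fell with sh45 only. EBP (-0.29 and -0.10) and TM7SF2 (-1.55 and -0.01) fell with sh43 only. MVK (0.51 and 0.10), PMVK (0.51 and 0.02) and MVD (0.20 and -0.16) rose with sh43 only. The MVD rise was lost with upper-quartile scaling (0.0785) and without sh43 replicate 3 (0.15, adjusted p 0.124) or shCtrl replicate 3 (0.13, adjusted p 0.174), and without sh45 replicate 3 or shCtrl replicate 3 MVD passed as lower under sh45 (0.0215 and 0.0212).

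Among the transport genes, NPC1 stood at 272, 288 and 286 CPM in sh43 and 202, 199.5 and 186 CPM in sh45, against 331, 301 and 316 CPM in shCtrl. All knockdown libraries were below control, sh45 much more so (edgeR quasi-likelihood, -0.16 with an adjusted p of 0.00386, and -0.69 with an adjusted p of 4.3e-12). STARD4 stood at 43.7, 49.6 and 49.6 CPM in sh43 and 38.9, 35.5 and 35.6 CPM in sh45, against 53.4, 53.8 and 57.5 CPM in shCtrl, all knockdown libraries being below control (-0.21 with an adjusted p of 0.0115, and -0.58 with an adjusted p of 1.5e-07); its sh43 call was lost without sh43 replicate 1 (0.0992) or shCtrl replicate 3 (0.0563). ABCA1 stood at 289.8, 319 and 311 CPM in sh43 and 159, 138 and 141 CPM in sh45, against 244, 161 and 199 CPM in shCtrl. It moved in opposite directions, up with sh43 (0.61 with an adjusted p of 5.7e-07) and down with sh45 (-0.46 with an adjusted p of 7.1e-05), although the control libraries themselves ranged widely. MYLIP fell with sh43 (-0.81) and was 0.07 with sh45.

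The 2 ZHX2 hairpins differed for most of the 36 genes: 23 were lower and 8 higher in sh45 than in sh43, where 32.7% of all genes tested were lower and 34.2% higher. All 7 mevalonate genes were lower in sh45 than in sh43, by -0.36 to -0.85. ACAT2, CYP51A1 and ABCA1, 3 of the 36, were called in opposite directions by the hairpins, rising with sh43 and falling with sh45. The share of all genes called in opposite directions was not counted, so whether 3 of 36 is many or few cannot be said. ACAT2 stood at 56.6, 58.5 and 58.5 CPM in sh43 and 30.9, 31.5 and 33.5 CPM in sh45, against 41.5, 40.0 and 42.4 CPM in shCtrl, 1 group on each side of control. TM7SF2 showed the highest positive difference of the 36, 1.54 with an adjusted p of 1.3e-09 (sh45 over sh43, edgeR quasi-likelihood), with 5.12, 3.64 and 3.73 CPM in sh43 and 11.7 to 12.6 CPM in the 3 libraries of sh45, against 11.8, 13.2 and 11.5 CPM in shCtrl. ZHX2 RNA was itself higher in sh45 than in sh43 by 1.06 in log2; its part in these differences was not tested.

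Sterol steps and fatty acid steps were then set side by side. With sh50, 15 of 18 sterol genes and 7 of 9 fatty acid genes fell, and with sh52, 10 of 18 and 6 of 9; the median log2 changes of the 2 lists differed by -0.01 (sterol minus fatty acid) under each of these hairpins. With sh43, 7 of 18 sterol genes fell and 5 rose (median -0.01), while 7 of 9 fatty acid genes fell and 1 rose (median -0.24), a difference of 0.23. With sh45, 13 of 18 sterol genes and 8 of 9 fatty acid genes fell and none rose, and the medians differed by 0.02. Of all genes tested in the USP13 experiment, 11.3% fell and 10.2% rose with sh50, and 6.56% fell and 5.45% rose with sh52. Of those tested in the ZHX2 experiment, 35.2% fell and 33.5% rose with sh43, and 27.3% fell and 25.3% rose with sh45. The sterol counts with sh43 (38.9% fell and 27.8% rose) are near the shares of all genes. The mean log2 change of the fatty acid genes was -0.49 with sh43 and -0.56 with sh45, and -0.28 and -0.42 when SCD was left out. In each library the mean log2 CPM of the sterol genes minus that of the fatty acid genes was -1.65, -1.64 and -1.66 in sh50 and -1.69, -1.64 and -1.67 in sh52, against -1.63, -1.62 and -1.59 in USP13 shCtrl. Every knockdown library lay below every control, some by a small margin. In the ZHX2 experiment it was -1.65, -1.62 and -1.61 in sh43 and -1.93, -1.93 and -1.85 in sh45, against -2.05, -1.96 and -2.08 in shCtrl. The sh43 libraries were well above the controls and the sh45 libraries slightly above. Without SCD the sh45 values, -1.74, -1.74 and -1.66, overlapped those of control, -1.72, -1.63 and -1.75, and the sh43 values, -1.54, -1.50 and -1.49, did not.

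**Figure D5:**
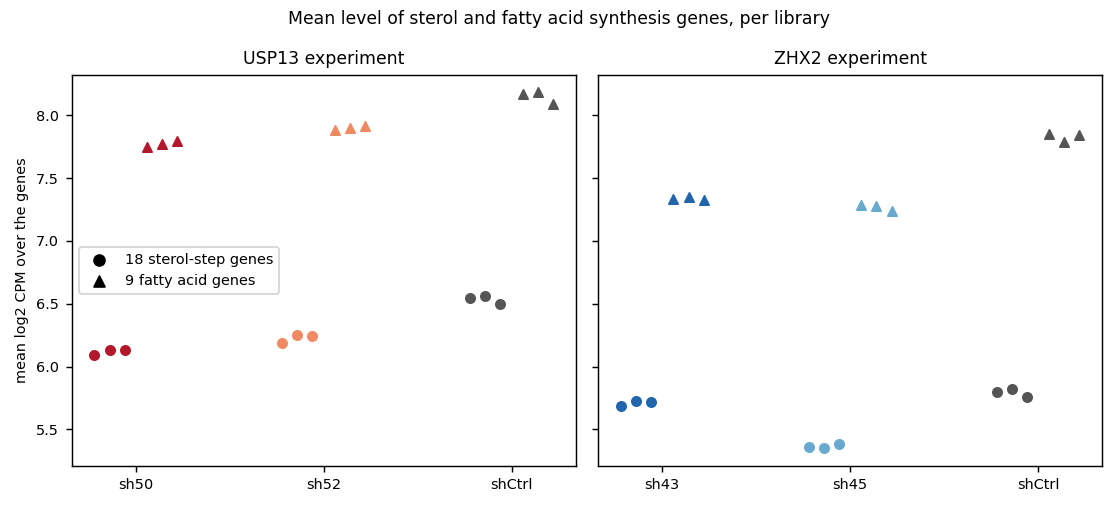
Mean log2 CPM over the 18 sterol-step genes (circles) and the 9 fatty acid genes (triangles) in each library, hairpins left of shCtrl. Both means are lower than control in all 6 USP13 knockdown libraries; with sh43 the sterol mean (5.71, against 5.80 in shCtrl) lies much closer to control than the fatty acid mean (7.34, against 7.83).

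Responses in the USP13 experiment were compared with those in the ZHX2 experiment, each as the mean of both hairpins over its own controls, in a fit of all 18 libraries. Of the 36 genes, 12 had a lower and 12 a higher log2 change in the USP13 experiment, where 20.7% and 22.7% of the 14207 genes tested did. The 12 lower ones were ACAT2, HMGCS1, MVK, PMVK, MVD, SQLE, MSMO1, EBP, INSIG1, INSIG2, ACLY and ELOVL6, with 5 of the 7 mevalonate genes among them. The largest of these differences was -0.74 (ELOVL6, adjusted p 6.1e-09, edgeR quasi-likelihood). The 12 higher ones were LSS, TM7SF2, SC5D, SCAP, SREBF1, SREBF2, NPC1, MYLIP, SCD, ACACA, FADS1 and FADS2. SCD differed by 1.56 (adjusted p 2.6e-22), SREBF1 by 0.86 and SREBF2 by 0.73. The genes that fell under both USP13 hairpins and under both ZHX2 hairpins numbered 11, which is 64.71% of the 17 and 68.75% of the 16; of the 13182 genes tested in both experiments, 1.57% were lower under all 4. These 11 were FDFT1, LSS, MSMO1, SC5D, DHCR7, STARD4, SCD, ACLY, ELOVL5, FADS1 and FADS2, of which 5 are squalene and sterol genes, 5 are fatty acid genes and none is a mevalonate or SREBP gene. In 3 of the 11 (SC5D, STARD4 and ACLY) a call rested on libraries or settings named above.

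Further genes of the same pathways were taken from lists. Of 10 other sterol genes, 1 fell with sh50 and none changed with sh52 (0 also at an unadjusted p under 0.05, edgeR), and of 14 other fatty acid genes 7 fell and 1 rose with sh50 and 1 fell and 1 rose with sh52. Of all genes tested, 11.3% fell and 10.2% rose with sh50, and 6.56% fell and 5.45% rose with sh52. The mitochondrial citrate carrier SLC25A1, which supplies citrate to ACLY, fell under both (-0.26 and -0.27), and the acyl-CoA synthetase ACSL1 rose under both (0.32 and 0.32). In the ZHX2 experiment 5 of the 10 other sterol genes fell and 3 rose with sh43, where 35.2% of all genes tested fell and 33.5% rose, and 5 fell and 1 rose with sh45, where 27.3% fell and 25.3% rose. The 3 risers with sh43 are a share near that of all genes. Under both ZHX2 hairpins 4 of the 10 fell and none rose, where 15.9% of all genes tested fell and 14.1% rose under both. Those that fell under both were MBTPS1 (-0.49 and -0.14) and MBTPS2 (-0.54 and -0.56), the proteases that release SREBP from the membrane, AACS, which activates acetoacetate (-0.26 and -0.47), and LPIN1, a phosphatidate phosphatase (-0.26 and -0.27). Of the 14 other fatty acid genes 8 fell and 4 rose with sh43, and 9 fell and 2 rose with sh45, to be read against the same shares of all genes. Under both hairpins 6 of the 14 fell and none rose, beside the 15.9% and 14.1% of all genes. Those that fell under both were the second stearoyl-CoA desaturase gene SCD5 (-2.09 and -0.97), the elongase gene ELOVL7 (-0.61 and -0.38), the dehydratase of the elongation cycle HACD3 (-0.56 and -0.35), SLC25A1 (-0.57 and -0.19), the acyl-CoA synthetase ACSL3 (-0.18 and -0.59) and ME1, malic enzyme, a source of NADPH (-0.24 and -0.16). SCD5 levels were low, at 1.9, 1.3 and 1.5 CPM in sh43 and 3.0, 4.3 and 2.8 CPM in sh45. Its shCtrl libraries had 7.0, 8.3 and 4.5 CPM. The ZHX2 hairpins called 4 of the 14 in opposite directions. ACSL1 (0.49 and -0.48), HSD17B12 (0.68 and -0.27) and GPAM (0.42 and -0.45) rose with sh43 and fell with sh45, and TECR did the reverse (-0.16 and 0.21). Among the 10 other sterol genes 1 did so, LBR (0.190 with sh43 and -0.315 with sh45). The share of all genes called in opposite directions was not counted. Of 4 LXR genes 3 were tested (ABCG1 did not pass the filter on low counts), none of which changed with sh50 or sh52 in edgeR's test, where LPCAT3 alone, with sh52, had an unadjusted p under 0.05. LPCAT3 was higher in sh52 than in sh50 (0.25 with an adjusted p of 0.0245, edgeR quasi-likelihood). Under both ZHX2 hairpins the receptor gene NR1H2 rose (0.34 and 0.43), and the LXR target LPCAT3, a lysophospholipid acyltransferase, fell (-0.96 and -0.55). Of all genes tested, 14.1% rose and 15.9% fell under both. The third tested gene, NR1H3, rose with sh45 only (0.43 with an adjusted p of 0.035) and was -0.005 with sh43.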

How the data were processed

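RNA-seq libraries (paired-end, TruSeq RNA v2, which does not mark strand, per the labels' protocols) were quantified by RefSeq transcript. The deposited files hold, per the file headers, an estimated count, a TPM and lengths for each transcript; the authors' TPM values share 1 total across libraries and served only to compare levels between genes. Salmon 0.11.3, STAR 2.5.2b, cutadapt 1.12 and DESeq2 1.14.1, with build hg19, appear in the submitters' processing notes, without their roles. The deposited estimated counts were whole within 1e-06, were rounded, and were summed over transcripts to 27086 genes, named by the RefSeq table (59301 transcripts) or GENCODE 29 (684); 437 unnamed transcripts (0.0854% to 0.12% of counts) were left out.

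Genes were filtered with filterByExpr and tested with edgeR 4.0.16 (quasi-likelihood F-test, TMM scaling, Benjamini-Hochberg adjustment over all genes tested, threshold 0.05) in R 4.3.3, with 1 mean per group and the 9 libraries of an experiment in 1 fit. Risen or fallen means past that threshold. The script was tested on simulated data. Replicates differed beyond counting noise in all 18 pairs (chi-square per degree of freedom 2.333 or more). Values per library are given for up to 3 genes of each role group with the largest mean change among those called under both hairpins, and for SREBF1, SREBF2, INSIG1, SCD, FASN and ABCA1; other values were added after they had been seen. The 36 genes and the other lists were chosen with earlier results of these data known. Transcripts of a gene were not described singly. Alternatives were other scalings, no filter, no mitochondrial rRNA, DESeq2 1.42.0, the 2 groups compared only, effective lengths as offsets, a replicate block, and each library left out in turn.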

Additional observations from a re-analysis of the deposited data

Results flagged for a closer look

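Responses of 4 genes differed between the 2 ZHX2 hairpins, either with calls in opposite directions or by more than 1 log2 unit (sh45 over sh43, edgeR quasi-likelihood test). The difference was -0.85 for ACAT2 (adjusted p 2e-11), -0.58 for CYP51A1 (2.5e-09), -1.07 for ABCA1 (3e-11) and 1.54 for TM7SF2 (1.3e-09). ACAT2, CYP51A1 and ABCA1 were higher than control with sh43 in 3 of 3 libraries and lower with sh45 in 3 of 3. TM7SF2 was lower than control in 3 of 3 sh43 libraries and overlapped it with sh45. Of all genes tested, 32.7% were lower and 34.2% higher in sh45 than in sh43. How many of all genes meet the rule for a closer look was not counted, so these 4 are not shown to be unusual.

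SCD responded differently in the 2 experiments. Its log2 change was 1.56 higher in the USP13 experiment than in the ZHX2 experiment (SE 0.05, adjusted p 2.6e-22), being below control in all 6 knockdown libraries of each. The 2 experiments used separate controls, and what sets them apart besides the hairpins cannot be told apart from the knockdown.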

How the results depend on the processing

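No change reversed its sign among the called members under any alternative. Calls held under every alternative for 22 of 27 genes with sh50, 14 of 18 with sh52, 25 of 29 with sh43 and 26 of 27 with sh45. The count of genes that rose with sh52 was 0 and became 1 without the filter on low counts. With 1 library left out, the genes that fell numbered 23 to 26 with sh50, 16 to 19 with sh52, 18 to 20 with sh43 and 26 to 27 with sh45. The genes that rose numbered 0 to 1 with sh50, 0 to 1 with sh52, 8 to 9 with sh43 and 0 to 1 with sh45. The sterol minus fatty acid median lay at -0.05 to 0.02 with sh50, -0.07 to 0.02 with sh52, 0.17 to 0.31 with sh43 and -0.04 to 0.08 with sh45. Genes that differed between hairpins numbered 5 to 8 for sh52 against sh50 and 29 to 34 for sh45 against sh43. Replicates with the same number did not deviate together (correlations -0.10 to 0.06 in the USP13 experiment and -0.06 to 0.04 in the ZHX2 experiment), so the numbers do not pair libraries. With the replicate block, 25 genes fell and 1 rose with sh50, 17 fell with sh52, 20 fell and 9 rose with sh43, 26 fell and 1 rose with sh45, and the sterol minus fatty acid medians were -0.01, -0.01, 0.23 and 0.02. With it, 6 genes differed between sh52 and sh50, 31 between sh45 and sh43, and 24 between the experiments. With it, SREBF2 with sh50 (adjusted p 0.0506) and SC5D with sh52 (0.0677) did not pass the threshold of edgeR's test. Precision was lowest for HSD17B7 with sh45, whose 3 libraries had 8.05, 6.15 and 9.62 CPM, where the standard error of the log2 change was 0.16.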
